A study of Mus musculus with 36 samples.

Results

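The change in the response to pneumonectomy (PNX, here the removal of the left lung by surgery) between day 1 and day 3 was measured in the lungs of 3 month old mice. Of the 36 arrays of the series, 12 belong to this comparison, and they make up 6 of its 18 pools. All mice were female C57BL6 that underwent PNX, and no other treatment separates the groups. Each pool holds equal amounts of RNA of 2 mice. The left lung taken at surgery is the control of the same mice, and their right lung was taken 1 day later in 3 pools and 3 days later in the other 3 pools. The response of a pool is the log2 ratio of its right lung over its left lung, on Illumina MouseWG-6 v2 arrays. A response of 1 is a level 2 times as high in the right lung, and the change in response is the mean of the 3 day 3 ratios minus the mean of the 3 day 1 ratios. Different mice were used on the 2 days, so the change compares cohorts and follows no mouse over time. Each chip held 1 day and 1 side. Every ratio of right over left lung therefore compares 2 chips, so that side of the lung, PNX and chip cannot be told apart, and neither can day and chip. No array of a sham operated mouse was used.

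In mice, removal of the left lung is followed by growth of the remaining lobes. Cells that enter the cell cycle make the enzymes of DNA replication as they prepare for S phase, and the proteins of mitosis and cytokinesis later, in G2 and M phase. Surgery also sets off the acute phase response, in which cytokines such as IL-6 raise secreted proteins of innate defence, and it brings neutrophils and then monocytes into injured tissue. New lung tissue needs matrix, above all the fibrillar collagens and elastin that carry the walls of the air spaces.

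The arrays read as lung. The mean log2 intensity of the 16 measured markers of alveolar type II cells lay between 12.96 and 13.19 on all 12 arrays, and that of the 10 measured club cell markers between 13.49 and 13.66. Probe intensity at the 75th percentile ranged from 139 to 254 on the left lung arrays and from 255 to 515 on the right lung arrays before normalization, and 42.9% to 48.1% of probes were detected. The ratios of day 3 replicate 1 correlated with those of the other day 3 pools at 0.54 and 0.56 across transcripts, while the other day 3 pair reached 0.75 and the day 1 pools 0.64 to 0.68. In whole lung, more cells of a type and more RNA per cell cannot be told apart.

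Between day 1 and day 3 the response of 442 of 15795 transcripts changed, which is 2.8% of those tested (limma, adjusted p under 0.05 and a response of at least 1.5-fold on day 1 or day 3). It was higher on day 3 for 286 transcripts (1.81%) and lower for 156 (0.988%). With a pool left out, 112 to 242 transcripts were higher and 54 to 132 lower. The counts were 112 and 54 without day 1 replicate 3, 162 and 67 without day 1 replicate 1, 145 and 63 without day 3 replicate 1, and 149 and 100 without day 3 replicate 2. A fit on the 6 pools of 3 month mice alone, with fewer arrays behind the spread, gave 89 and 22. By gene, with the brightest probe standing for each, 223 of 11835 genes were higher and 110 lower. The groups did not overlap for 441 of the 442, beside 13.5% of all transcripts whose 3 day 3 ratios all lay above the day 1 ratios and 10.6% with all of them below. Over all transcripts the median change was 0.01.

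The transcripts fell into classes by the day on which they passed the test against the left lung. Over all transcripts, 5.96% had risen and 8.57% had fallen on day 1, and 6.76% and 7.78% on day 3. The response started on day 3 for 211 transcripts, of which 127 rose and 84 fell. It had ended by day 3 for 191. Of these, 58 had risen on day 1 and 133 had fallen on day 1, and on day 3 they did not pass the test. The response grew for 20, of which 18 rose further, and it shrank for 5. For 15 transcripts it turned from 1 direction to the other. The median of the 127 that started to rise went from a response of −0.05 to 1.02, and that of the 133 whose fall ended went from −0.89 to 0.03. Part of these shifts lay in the left lungs. Their median difference, day 3 minus day 1 cohort, was −0.29 for the 127 and for the 133, beside 0.90 and 0.60 in the right lungs. For the 84 and the 58 it was 0.41 and 0.39, beside −0.63 and −0.74. Between right lungs alone, 87 of the 127, 57 of the 133, 30 of the 84 and 30 of the 58 passed the test. A response that missed the test on a day is not shown to be 0 on that day.

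**Figure D1:**
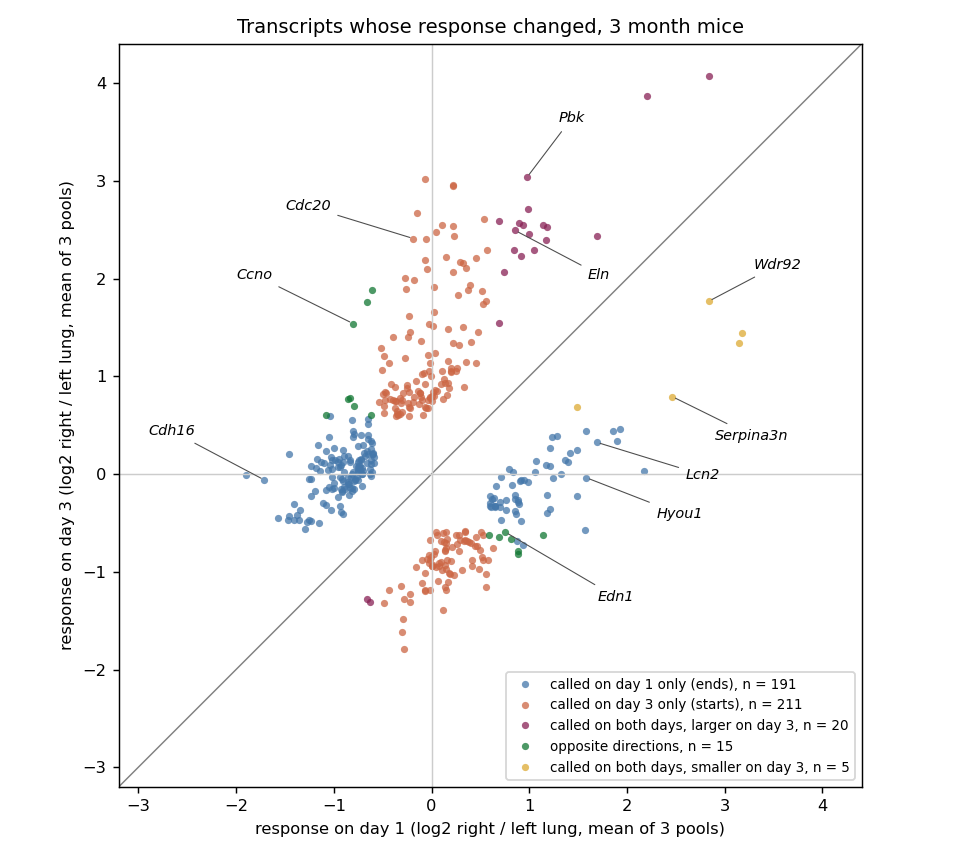
Mean response on day 1 (x axis) and day 3 (y axis), both log2 right over left lung, of the 442 transcripts whose response changed, 1 point per transcript, coloured by class. Points above the diagonal had the higher response on day 3, and Cdc20 lies near 0 on the x axis while Serpina3n lies far to the right.

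The right lungs of the 2 days were also set against each other directly. When they were compared, 351 of all transcripts were higher on day 3 (2.22%) and 188 lower (1.19%). The total of 539 was 315 without day 1 replicate 1, 241 without day 1 replicate 3 and 299 without day 3 replicate 1. Of the 442 transcripts, 234 passed that test in the same direction. Both tests use the same right lung arrays, so this count describes where the change lay and is no second test of it. The left lungs were taken at surgery, ahead of the response. Between the left lungs of the cohorts, 2043 of 15795 transcripts had an unadjusted p under 0.05 (limma), a share above 0.05. After adjustment 4 transcripts differed by at least 1.5-fold (0.0253%). They were Clec4b1, Dusp23, Il18r1 and the clone C630030D09Rik, and 3 of these 4 are among the 442. The number was 0 without day 3 replicate 3, 1 without day 1 replicate 2 and 9 without day 1 replicate 1. For 95 of the 442 the left lungs differed by more than 0.5 times the change. Such genes were passed over when the genes with the largest changes were chosen. Where a called gene of a list had such a difference it is given. Among the called genes described here, some had a difference between the right lungs alone more than 1.5 times smaller than the change. They were Acsl1, Adamts12, Arsg, Bcl2l1, C1qa, Cytl1, Eln, Fcgr3, Fgf22, Foxj1, Hist1h2ag, Hk1, Lrg1, Smad6, Spp1 and Sult1a1. Genes that were not called could meet this too, among them Csf3r and Tnc, and Acta2 lay near that factor (change −0.37, right lungs −0.24).

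**Figure D2:**
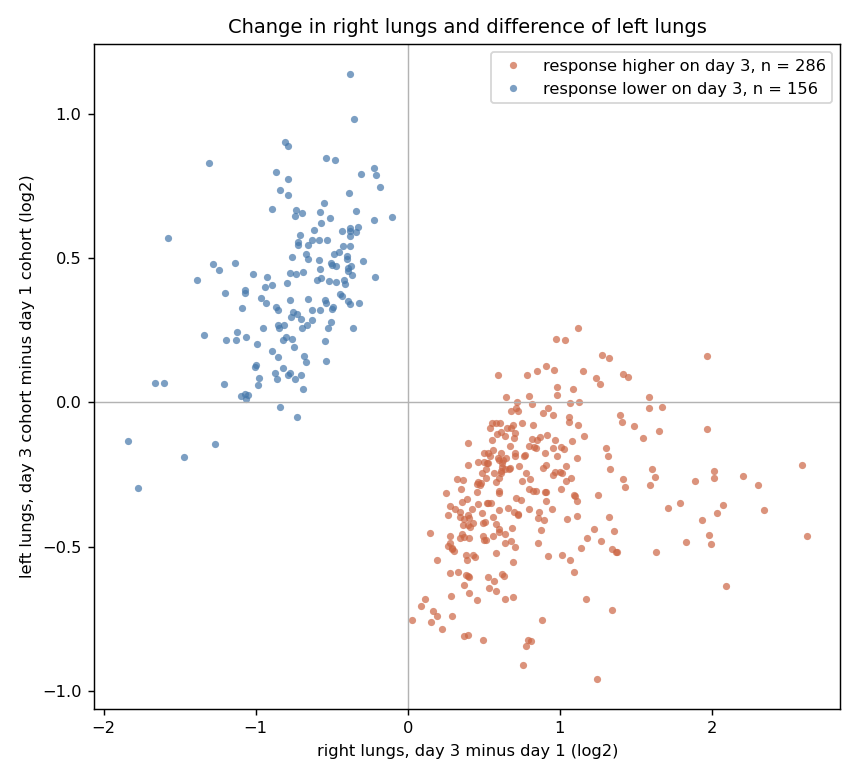
For each of the 442 transcripts, the difference between the day 3 and day 1 right lungs (x axis, log2) and between the left lungs of the 2 cohorts (y axis, log2, a narrower scale), coloured by the direction of the change in response. The response change is x minus y, so points far from 0 on the y axis owe part of their change to the left lungs.

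Genes of mitosis led the changes by size. Of the 40 genes listed for mitosis, 39 were on the array and 16 were detected on every array, and the response of all 16 was higher on day 3, against 1.81% of all transcripts. Their median change was 1.98, or 3.93-fold. In the day 1 pools the median ratio of the 16 genes was 0.36, 0.41 and −0.14, and in the day 3 pools it was 2.75, 2.50 and 1.93. No day 3 pool came near a day 1 pool. On day 1 only 4 of the 16 had passed the test against the left lung, and on day 3 all 16 had. The count was 12 without day 1 replicate 3 and 12 without day 3 replicate 1, and the median change then stayed between 1.82 and 2.12 over all 6 pools left out in turn.

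Cdc20, the activator of the anaphase-promoting complex, had the smallest p-value among these genes. Its log2 level in the left lungs was 9.06, 8.75 and 8.99 in the day 1 cohort and 8.52, 8.73 and 8.70 in the day 3 cohort. The right lungs measured 8.90, 8.76 and 8.59 on day 1 and 11.29, 11.18 and 10.71 on day 3. The day 3 right lungs stood above all the other lungs. The ratios were −0.16, 0.01 and −0.40 in the day 1 pools and 2.77, 2.45 and 2.01 in the day 3 pools, a change of 2.60 ± 0.24 (SE) or 6.04-fold (adjusted p = 4.05e-05). All 3 of its probes passed the test, with changes of 2.60 to 3.09.

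Plk1, a kinase that drives entry into mitosis and the separation of centrosomes, had a similar course. Its ratios were −0.19, 0.14 and −0.11 in the day 1 pools and 2.84, 2.64 and 1.75 in the day 3 pools, and the change was 2.46 ± 0.33 (SE) (adjusted p = 0.000707). The division of the cell body was represented by Kif23, Prc1 and Anln, which build the central spindle and the cleavage furrow. For Kif23 the ratios were −0.11, −0.27 and −0.44 in the day 1 pools and 2.19, 2.23 and 1.61 in the day 3 pools (change 2.28 ± 0.21 (SE), adjusted p = 4.05e-05). The ratios of Prc1 were 0.35, 0.32 and −0.33 in the day 1 pools and 2.91, 2.57 and 2.18 in the day 3 pools (change 2.44 ± 0.30 (SE), adjusted p = 0.000422), and those of Anln were 0.28, 0.04 and −0.45 in the day 1 pools and 1.99, 2.46 and 1.85 in the day 3 pools (change 2.14 ± 0.29 (SE), adjusted p = 0.000707). In none of these genes did a day 3 pool overlap a day 1 pool, and the day 1 ratios of Prc1 and Anln lay on both sides of 0 while those of Kif23 were all below it.

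Spindle genes followed the same course. Nusap1 and Spag5 bind spindle microtubules. The change of Nusap1 was 2.17 ± 0.27 (SE), from −0.18 ± 0.36 (SD, n = 3) on day 1 to 1.99 ± 0.44 on day 3, and that of Spag5 was 2.43 ± 0.29 (SE), from 0.05 ± 0.26 to 2.48 ± 0.23. Cdca3, a part of the machinery that degrades the mitosis inhibitor Wee1, had ratios of 0.36, 0.69 and −0.40 in the day 1 pools and 3.19, 3.02 and 2.65 in the day 3 pools, a change of 2.73 ± 0.33 (SE) or 6.65-fold. Cdkn3, a phosphatase that acts on cyclin-dependent kinases, had ratios of 0.51, 0.11 and 0.05 in the day 1 pools and 3.48, 2.87 and 2.48 in the day 3 pools (change 2.72 ± 0.40 (SE)). These are the 2 largest changes of a named gene. The adjusted p-values of the 4 genes were 0.000422, 0.000299, 0.000393 and 0.00156, and all 4 passed the test with any of the 6 pools left out.

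Mki67, which encodes the proliferation antigen Ki-67, showed a small rise on day 1 that did not reach 1.5-fold and a large one on day 3. The ratios were 0.50, 0.56 and 0.54 in the day 1 pools and 2.88, 2.67 and 2.29 in the day 3 pools, and the 3 day 1 pools lay close together. The change was 2.08 ± 0.24 (SE), or 4.22-fold (adjusted p = 0.000284). Bub1b, which holds back anaphase until all chromosomes are attached, changed by 1.47 (adjusted p = 0.000738), and Cenpa, the histone of the centromere, by 1.69 (adjusted p = 0.00641). Foxm1, a transcription factor for genes of G2 and M phase, changed by 1.57 (adjusted p = 0.021), from 0.27 on day 1 to 1.84 on day 3.

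**Figure D3:**
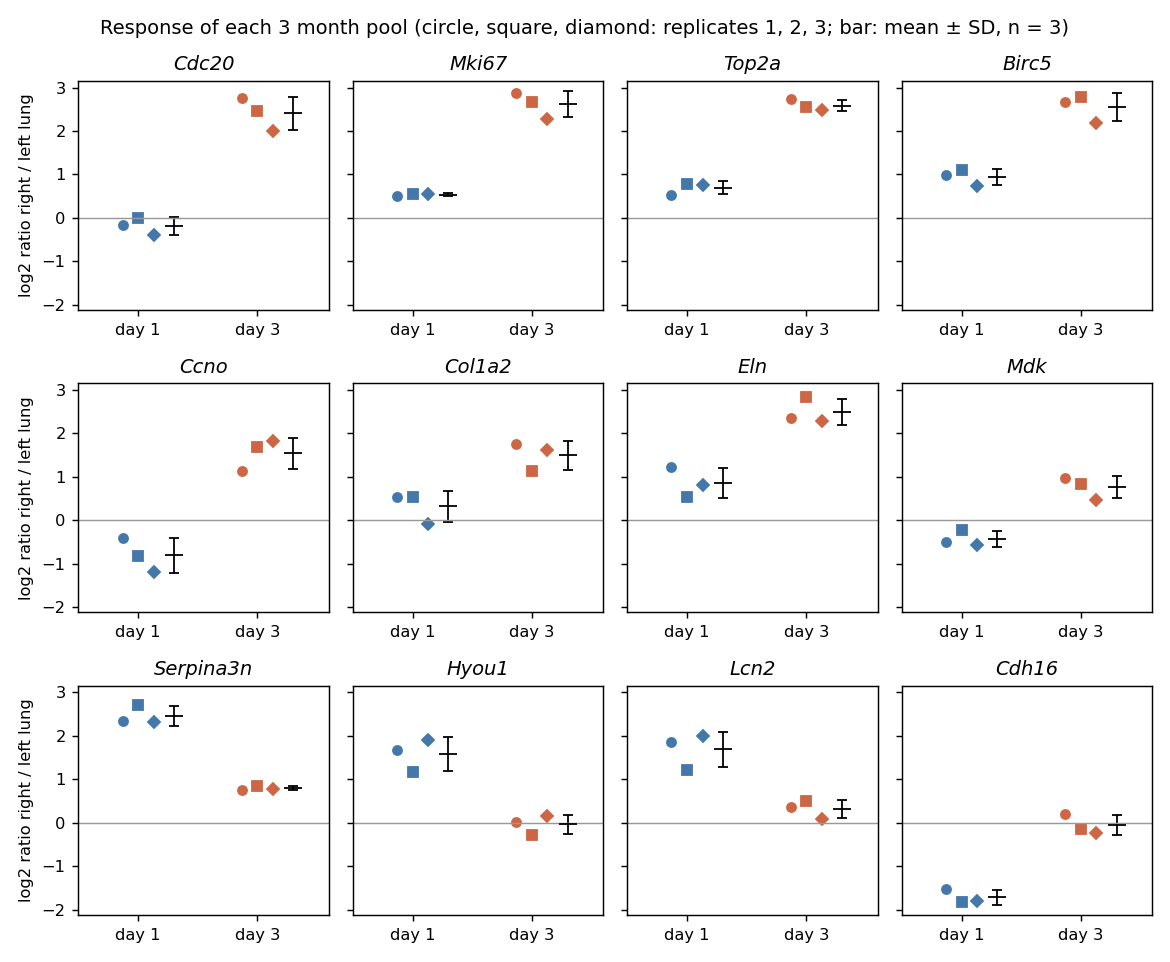
Log2 ratio of right over left lung in each pool of 3 month mice for 12 genes, day 1 in blue and day 3 in orange, with circles, squares and diamonds for replicates 1, 2 and 3 and the mean ± SD (n = 3) in black. Cdc20 and Mki67 rise to between 2.01 and 2.88 on day 3, while Serpina3n, Hyou1 and Lcn2 come down and Cdh16 returns towards 0.

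A part of the mitosis genes had begun to respond on day 1 and grew from there. Top2a, the topoisomerase that untangles chromosomes, had ratios of 0.53, 0.79 and 0.77 in the day 1 pools and 2.73, 2.55 and 2.48 in the day 3 pools (change 1.89 ± 0.32 (SE), adjusted p = 0.00487). The ratios of Birc5, the survivin subunit of the chromosomal passenger complex, were 0.99, 1.10 and 0.73 in the day 1 pools and 2.67, 2.78 and 2.19 in the day 3 pools (change 1.61 ± 0.24 (SE), adjusted p = 0.00181). Pbk, a mitotic kinase, went from 1.42, 0.50 and 1.01 to 3.51, 2.90 and 2.70 (change 2.06 ± 0.34 (SE), adjusted p = 0.00437). In all 3 genes the day 1 pools were above 0 and the day 3 pools above all of them. Cdk1, the kinase of mitosis, which the array names Cdc2a, went from 1.19, 1.19 and 0.59 to 2.95, 2.89 and 2.29. Its change of 1.72 ± 0.35 (SE) had an adjusted p of 0.0144, which rose to at most 0.0698 and lost the call without day 1 replicate 3, day 3 replicate 1 or day 3 replicate 2.

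No gene of DNA replication had a called change. Of 33 listed genes 24 were tested, none of them passed the test of the change (limma), and 2.8% of all transcripts did. Their response was already present on day 1, when 12 of the 24 had risen, beside 5.96% of all transcripts. On day 3 20 of the 24 had, beside 6.76%. The median ratio over the list was 0.75, 0.58 and 0.43 in the day 1 pools and 1.24, 1.08 and 0.74 in the day 3 pools, so that the lowest day 3 pool lay just below the highest day 1 pool. The median change was 0.37. Mcm6, a subunit of the helicase that opens DNA, had a response of 1.51 on day 1 and 1.30 on day 3 (change −0.21, adjusted p = 0.571). The response of Mcm5, another subunit, was 1.01 and then 1.21 (adjusted p = 0.63), and that of Rrm1, which makes deoxynucleotides, 1.02 and then 1.34 (adjusted p = 0.467). The largest changes in the list were those of Tk1, thymidine kinase, at 1.10 (adjusted p = 0.125) and of Uhrf1, which passes on DNA methylation, at 1.03 (adjusted p = 0.0871), and both missed the threshold. A change that missed the threshold with 3 pools a day is not shown to be absent.

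**Figure D4:**
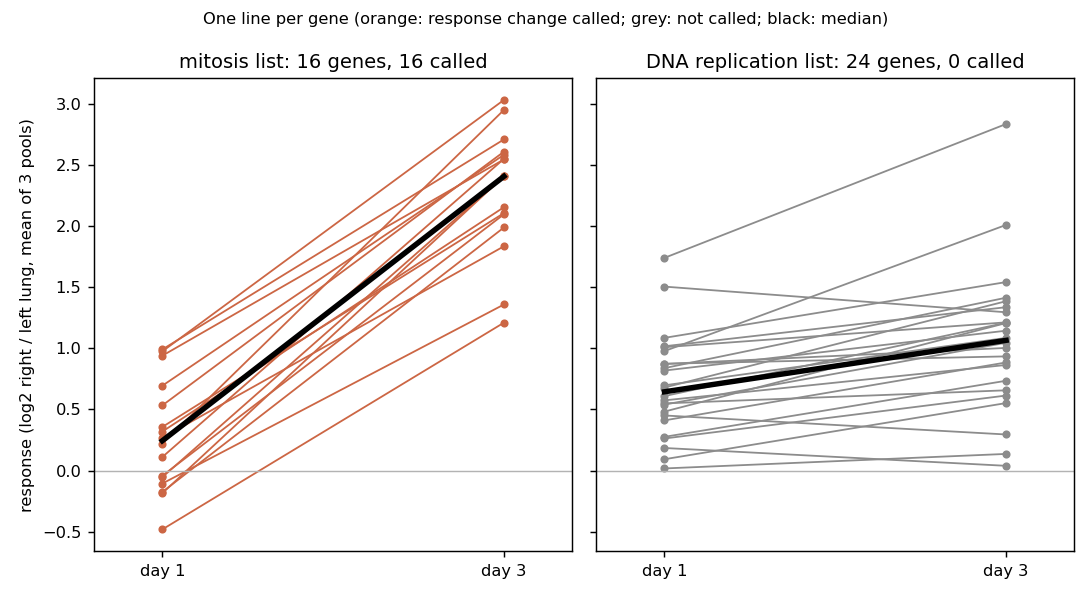
Mean response on day 1 and day 3 (y axis, log2 right over left lung, mean of 3 pools) of each tested gene of the mitosis list and of the DNA replication list, with the median in black. All 16 mitosis lines climb, from a median of 0.24 to 2.41, while the 24 replication lines start higher, at 0.64, and reach 1.07.

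The promoters of these genes were read for the letters of the elements that are known to bind regulators of late cell cycle genes. The cell cycle genes homology region (CHR) has the core TTTGAA, and the CCAAT box that often lies near it binds the factor NF-Y. Both strands were searched, as TTTGAA or TTCAAA and as CCAAT or ATTGG, where neighbouring matches of the 2 words can share 1 letter, in RefSeq windows of 300 bases, 250 before and 50 after a start (GRCm38.p6). Windows were found for 14 of the 16 mitosis genes, and 12 of these 14 (85.7%) held the CHR core, against 20.2% of 27025 genes. For the replication genes it was 3 of 21 (14.3%). CCAAT was present for 11 of 14 mitosis genes (78.6%), 10 of 21 replication genes (47.6%) and 41.1% of all genes. Within the last 100 bases before the start, 5 mitosis genes held both (35.7%), no replication gene did, and 1.26% of all genes did. These 5 stretches are shown because they carry both words close to the start, and that of Tk1 because it is the replication gene with the largest change. Capitals mark either word on either strand.
Cdc20: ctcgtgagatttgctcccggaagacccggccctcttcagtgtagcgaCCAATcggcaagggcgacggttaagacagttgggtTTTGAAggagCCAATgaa
Cdk1: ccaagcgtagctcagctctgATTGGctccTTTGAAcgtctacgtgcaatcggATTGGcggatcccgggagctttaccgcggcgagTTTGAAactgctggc
Top2a: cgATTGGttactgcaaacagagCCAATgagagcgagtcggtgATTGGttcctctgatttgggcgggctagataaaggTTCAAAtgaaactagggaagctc
Prc1: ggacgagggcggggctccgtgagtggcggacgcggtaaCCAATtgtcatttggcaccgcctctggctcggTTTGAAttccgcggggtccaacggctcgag
Kif22: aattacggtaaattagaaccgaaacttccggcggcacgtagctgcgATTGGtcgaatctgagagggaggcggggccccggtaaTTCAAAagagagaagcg
Tk1: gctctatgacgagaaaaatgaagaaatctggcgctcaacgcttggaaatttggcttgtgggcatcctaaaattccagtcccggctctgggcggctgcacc
They lie at chr4:118437344-118437443, minus strand (Cdc20), chr10:69352913-69353012, minus strand (Cdk1), chr11:99024190-99024289, minus strand (Top2a), chr7:80294376-80294475, plus strand (Prc1), chr7:127042421-127042520, minus strand (Kif22) and chr11:117826015-117826114, minus strand (Tk1). A match is a run of letters and not a site shown to be bound, and the stretch of Tk1 holds neither word. Kif22, a kinesin that moves chromosomes, changed by 1.84 (adjusted p = 0.0202).

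The response of a few genes turned from a fall to a rise. Cdca2, which targets a phosphatase to chromosomes as mitosis ends, had ratios of −0.43, −0.60 and −0.78 in the day 1 pools and 2.28, 2.23 and 1.14 in the day 3 pools (change 2.49 ± 0.31 (SE), adjusted p = 0.000422). Ccno, cyclin O, is known for its part in the growth of many cilia in airway cells. Its right lungs measured 8.52, 8.04 and 7.80 on day 1 and 10.00, 10.20 and 9.96 on day 3, beside left lungs of 8.92, 8.85 and 9.00 and 8.88, 8.53 and 8.14. The ratios were −0.40, −0.81 and −1.20 in the day 1 pools and 1.13, 1.68 and 1.82 in the day 3 pools, and the change was 2.34 ± 0.27 (SE), or 5.08-fold (adjusted p = 0.000275). Every day 1 ratio of both genes was below 0 and every day 3 ratio above 1. Fgf22, a fibroblast growth factor, also turned, from −1.34, 0.01 and −1.18 to 0.83, 0.92 and 0.58 (change 1.62 ± 0.33 (SE), adjusted p = 0.0137). Day 1 replicate 2 of Fgf22 was at 0.01, and the call was lost without day 1 replicate 1 or 3 (adjusted p up to 0.0648).

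Histone genes were looked at after their values had been seen. Of 35 genes with symbols starting in Hist, 10 were higher on day 3 and none lower, with a median change of 0.14, beside 1.81% higher among all transcripts. The largest was Hist1h2ag, an H2A histone made in S phase, with ratios of 0.64, 0.41 and −0.34 in the day 1 pools and 2.63, 2.40 and 2.28 in the day 3 pools (change 2.20 ± 0.26 (SE), adjusted p = 0.0003). Left lungs of the day 3 cohort were 0.96 lower than those of the day 1 cohort for this gene, and the right lungs alone changed by 1.24. Clustered histone genes are nearly identical in sequence, so that probes may not tell them apart.

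A few matrix genes were higher on day 3, among them 3 fibril-associated or fibrillar collagens and elastin. Of 13 interstitial collagens 11 were tested. Of these 3 were higher and 1 lower, beside 1.81% and 0.988% of all transcripts, and the median change was 0.69. Of 21 tested genes of elastic fibers only Eln was called. The median ratio of the 11 collagens was 0.60, 0.53 and 0.63 in the day 1 pools. In the day 3 pools it was 1.19, 1.13 and 1.18, without overlap. Col1a2, a chain of type I collagen, started on day 3 with ratios of 0.53, 0.53 and −0.08 in the day 1 pools and 1.75, 1.13 and 1.62 in the day 3 pools (change 1.17 ± 0.21 (SE) or 2.25-fold, adjusted p = 0.00663). That call was lost in the fit on the 6 pools alone. Col1a1, the other chain of that collagen, was already high on day 1, with a response of 1.86 on day 1 and 2.51 on day 3, and its change of 0.65 did not pass (adjusted p = 0.211). Col3a1, the fibrillar collagen of distensible tissue, grew from 1.29, 1.20 and 0.91 to 2.85, 2.29 and 2.51 (change 1.42 ± 0.30 (SE), adjusted p = 0.0173). Its call was lost without day 1 replicate 3 or day 3 replicate 1 (adjusted p = 0.0762 and 0.0715). Col14a1, a collagen on the surface of fibrils, changed by 0.82 ± 0.19 (SE) (adjusted p = 0.025), and that call was lost in 4 of 6 such fits. The collagen list held 2 calls without day 1 replicate 3 and 2 without day 3 replicate 1.

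Eln, the gene of elastin, had a response of 1.22, 0.54 and 0.81 on day 1 and 2.35, 2.83 and 2.29 on day 3, a change of 1.64 ± 0.31 (SE) or 3.12-fold (adjusted p = 0.00941). Its left lungs differed between the cohorts, with 10.23, 10.78 and 10.82 on the day 1 and 9.88, 9.47 and 10.00 on the day 3 side. The right lungs measured 11.45, 11.31 and 11.62 and 12.23, 12.30 and 12.29. Right lungs of the 2 days did not overlap, but their difference of 0.81 missed the threshold (adjusted p = 0.0844), so about as much of the change in response came from the left lungs as from the right. Col8a1, a short-chain collagen found around vessels, went the other way. Its early rise ended, with ratios of 1.5, 0.97 and 1.03 in the day 1 pools and 0.19, −0.15 and 0.24 in the day 3 pools (change −1.08 ± 0.20 (SE), adjusted p = 0.0094), and a further probe measured −0.73. In the fit on the 6 pools alone Col8a1 was not called.

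The response of 2 enzymes that cut the matrix started on day 3. For Adamts12, a secreted metalloprotease, the ratios were −0.05, 0.44 and 0.06 in the day 1 pools and 2.18, 2.32 and 2.15 in the day 3 pools. The change was 2.07 ± 0.33 (SE) or 4.19-fold (adjusted p = 0.00279), with the left lungs of the later cohort 0.72 lower. Mmp2, gelatinase A, changed by 1.0 ± 0.20 (SE) (adjusted p = 0.0134), from 0.00 ± 0.25 (SD, n = 3) to 1.0 ± 0.35, and lost the call without day 1 replicate 3 or day 3 replicate 1. Of 21 tested proteases and inhibitors of the matrix these 2 were higher and none was lower. Among 28 growth factors and receptors 2 were higher. Of all transcripts 1.81% were higher. Mdk, the heparin-binding growth factor midkine, was below the left lung on day 1 and above it on day 3, with ratios of −0.49, −0.23 and −0.57 in the day 1 pools and 0.97, 0.84 and 0.48 in the day 3 pools (change 1.19 ± 0.18 (SE), adjusted p = 0.00193). Its 2 probes both passed but placed the change differently. The dimmer probe went from a mean of −1.90 on day 1 to −0.01 on day 3. Areg, the EGF receptor ligand amphiregulin, changed by 1.58 ± 0.42 (SE), an adjusted p of 0.0482 that missed the threshold whichever pool was left out.

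Part of the acute phase response came down. Of 17 tested, 3 were lower on day 3, beside 0.988% of all transcripts, and none higher. The median change was −0.09, close to that of all transcripts. Serpina3n, a protease inhibitor of the acute phase, had the smallest p-value of the 3. The right lungs measured 14.59, 14.60 and 14.58 on day 1 and 13.17, 13.03 and 12.76 on day 3, and the left lungs 12.24, 11.87 and 12.26 and 12.41, 12.18 and 11.98. Its ratios were 2.35, 2.72 and 2.31 in the day 1 pools and 0.76, 0.85 and 0.77 in the day 3 pools, a change of −1.67 ± 0.21 (SE) or 3.18-fold lower (adjusted p = 0.000422), and it stayed above the left lung on day 3. Lcn2, the iron-withholding protein lipocalin 2, had ratios of 1.85, 1.22 and 1.99 in the day 1 pools and 0.37, 0.51 and 0.10 in the day 3 pools (change −1.37 ± 0.25 (SE), adjusted p = 0.00679). In the fit on the 6 pools alone Lcn2 was not called. The change of Lrg1, a glycoprotein induced by IL-6, was −0.89 ± 0.24 (SE) (adjusted p = 0.0455), a call that was lost in 5 of the 6 fits with a pool left out.

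The rise of 2 proteins that fold others in the endoplasmic reticulum had ended. Hyou1, an Hsp70-like chaperone of that compartment, had ratios of 1.67, 1.16 and 1.91 in the day 1 pools and 0.02, −0.29 and 0.16 in the day 3 pools, a change of −1.62 ± 0.29 (SE) or 3.07-fold lower (adjusted p = 0.00663). Pdia4, a disulfide isomerase, changed by −0.82 ± 0.18 (SE) (adjusted p = 0.0172), from 0.81, 0.27 and 0.71 to −0.39, 0.02 and −0.31, and lost the call without any of day 1 replicates 1 and 3 and day 3 replicate 1. Of 19 tested genes of the unfolded protein response, these 2 were lower, beside 0.988% of all transcripts, and none was higher. The median change was −0.26. Creld2, another member, had an adjusted p of 0.048 at a change of −0.79 but no 1.5-fold response on either day. Calr, calreticulin, had a response of 2.37 on day 1 and 1.09 on day 3 with an adjusted p of 0.116.

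Single genes of other roles were among the rises that ended. Tnfrsf1a, a receptor for TNF, had ratios of 1.51, 1.66 and 2.41 in the day 1 pools and −0.13, 0.67 and 0.80 in the day 3 pools (change −1.42 ± 0.28 (SE), adjusted p = 0.0121). Without day 1 replicate 3 its change was −1.14 and without day 3 replicate 1 it was −1.13, and neither was called (adjusted p = 0.0626 and 0.0555). The ratios of Bcl2l1, which encodes the survival protein Bcl-xL, were 0.97, 0.64 and 1.12 in the day 1 pools and −0.90, −0.07 and −0.48 in the day 3 pools (change −1.40 ± 0.27 (SE), adjusted p = 0.00975). All 3 of its probes passed the test, and no pool left out ended the call, but it missed the threshold on the 6 pools alone (adjusted p = 0.0528). The right lungs of Bcl2l1 differed by −0.73 and the left lungs by 0.67. With the mean of the 9 left lungs as a common baseline Bcl2l1 was not called. That baseline cancels between the days, so the change is then the right lung difference and no second estimate. Smad6, an inhibitor of BMP signalling, changed by −1.56 ± 0.37 (SE) (adjusted p = 0.0287). Day 3 replicate 1 was at −1.79 beside −0.30 and 0.03 in the other day 3 pools, and without it the change was −1.01 and not called. The call was also lost without day 1 replicate 1 or 3. The rises of the chemokine Ccl11 (eotaxin, change −1.12 ± 0.26 (SE), adjusted p = 0.0255) and of Spp1 (osteopontin, change −0.94 ± 0.24 (SE), adjusted p = 0.0371) had ended too, and each of these calls was lost in 4 of the 6 fits with a pool left out. For Spp1 the left lungs differed by 0.61 and the right lungs by −0.33.

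Plin4, which coats lipid droplets and is named S3-12 on the array, fell the most among named genes, with ratios of 1.92, 2.33 and 2.28 in the day 1 pools and 0.71, −0.91 and 0.28 in the day 3 pools (change −2.15 ± 0.45 (SE), adjusted p = 0.0161). Acsl1, which activates fatty acids, changed by −1.58 ± 0.33 (SE) (adjusted p = 0.0146), with ratios of 0.98, 0.99 and 1.57 in the day 1 pools and −1.0, −0.39 and 0.19 in the day 3 pools. Hk1, hexokinase 1, changed by −1.39 ± 0.31 (SE) (adjusted p = 0.0211). The calls were lost without day 1 replicate 3 or day 3 replicate 2 for Plin4, without day 1 replicate 3 or day 3 replicate 1 for Acsl1, and without either of these or day 3 replicate 3 for Hk1. In the right lungs alone the difference between the days was −1.58 for Plin4 (adjusted p = 0.0374), while −0.84 for Acsl1 and −0.74 for Hk1 missed the threshold (adjusted p = 0.0992 and 0.0657). Markers of fat stood high in these right lungs. All 4 tested of 13 listed had risen on day 1 and 3 of them on day 3, beside 5.96% and 6.76% of all transcripts. The median ratio of the 4 was 0.83, 2.08 and 2.55 in the day 1 pools and 1.35, 1.22 and 1.83 in the day 3 pools, and none passed the test of the change. Adipoq, the adipocyte hormone adiponectin, had a response of 2.25 on day 1 and 2.18 on day 3. The part of fat cells in the change of Plin4 and Acsl1 was not tested.

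Skeletal muscle genes were higher in the right lungs than in the left lungs on both days. Their median ratio over 8 tested of 18 listed genes was 4.49, 2.88 and 3.98 in the day 1 pools and 3.17, 1.78 and 3.39 in the day 3 pools. The groups overlapped, and no gene of the list passed the test of the change. Ckm, muscle creatine kinase, had a response of 4.64 on day 1 and 3.24 on day 3 (adjusted p of the change = 0.436). Trim72, a membrane repair protein of muscle, had ratios of 2.88, 3.58 and 2.98 in the day 1 pools and 2.09, 0.17 and 1.76 in the day 3 pools. Its change of −1.81 ± 0.46 (SE) (adjusted p = 0.0402) stood beside that shift, its lowest pool, day 3 replicate 2, was also the lowest for muscle genes, and the part of muscle in it was not tested. The call was lost in 4 of 6 fits with a pool left out.

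Ntrk2, the receptor for brain-derived neurotrophic factor, was another of the strong early responses that shrank. Its ratios were 3.25, 2.42 and 3.86 in the day 1 pools and 1.70, 1.65 and 0.99 in the day 3 pools (change −1.73 ± 0.37 (SE) or 3.32-fold lower, adjusted p = 0.0181), and its left lungs differed by 0.07 only. In 9 month mice the same comparison gave 0.29. The call was lost without day 1 replicate 1, day 1 replicate 3 or day 3 replicate 3 (adjusted p up to 0.0886). Wdr92, a WD-repeat protein, went from 3.19, 2.89 and 2.43 to 1.73, 2.11 and 1.47 and stayed high (change −1.07 ± 0.27 (SE), adjusted p = 0.0354), a call lost in 4 of those 6 fits.

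Falls that had ended by day 3 numbered 133, beside 127 rises that started on day 3. Cdh16, a cadherin of epithelia, was lower in every day 1 right lung and close to its left lung on day 3. The right lungs measured 8.63, 8.27 and 8.36 on day 1 and 9.66, 9.57 and 9.57 on day 3, beside left lungs of 10.15, 10.09 and 10.15 and 9.46, 9.72 and 9.80. The ratios were −1.51, −1.83 and −1.79 in the day 1 pools and 0.20, −0.15 and −0.23 in the day 3 pools, a change of 1.65 ± 0.19 (SE) or 3.14-fold (adjusted p = 0.000236). Foxj1, the master regulator of motile cilia, had ratios of −0.90, −0.77 and −0.77 in the day 1 pools and 0.70, 0.71 and 0.26 in the day 3 pools (change 1.37 ± 0.21 (SE), adjusted p = 0.00193), and its left lungs were 0.67 lower in the later cohort, near 0.5 times the change. With the authors' values, or with a common left lung baseline, the change of Foxj1 was not called. It was the only 1 of 13 tested ciliated cell markers to pass, and the median change of that list was 0.15. Lama3, a laminin chain of epithelial basement membranes, went from −0.90, −1.13 and −0.84 to −0.21, −0.19 and −0.31 (change 0.72 ± 0.14 (SE), adjusted p = 0.0102). In the fit on the 6 pools alone Lama3 was not called. Arsg, a lysosomal sulfatase, changed by 1.64 ± 0.33 (SE) (adjusted p = 0.0121), a call lost in 4 of the 6 fits with a pool left out.

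Genes of antigen presentation were low on day 1 and near the left lung on day 3. All 10 listed MHC class II genes were tested. On day 1, 7 of them had fallen, beside 8.57% of all transcripts, and on day 3 none had, beside 7.78%. The median ratio was −0.99, −0.75 and −0.35 in the day 1 pools and −0.09, 0.08 and −0.13 in the day 3 pools, without overlap. The change itself passed for H2-Aa, a chain of the presenting molecule (0.87 ± 0.22 (SE), adjusted p = 0.0414), and for H2-DMa, which loads peptides onto it (0.71 ± 0.19 (SE), adjusted p = 0.0496). Both calls were weak. With a pool left out, H2-Aa kept its call in 1 of 6 fits and H2-DMa in none. The other 8 had changes of 0.31 to 0.63. All 11 tested T cell markers had a change above 0, and none passed. Their median ratio was −1.40, −0.73 and −0.95 in the day 1 pools and −0.51, −0.52 and −0.47 in the day 3 pools, 8 had fallen on day 1 and 4 on day 3, and Lat, an adaptor of the T cell receptor, came closest at 0.86 (adjusted p = 0.0725).

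A few macrophage genes started to rise on day 3. Of 17 tested markers of monocytes and macrophages 4 were higher, beside 1.81% of all transcripts, and none lower. Their median change was 0.47. Trem2, a lipid-sensing receptor of macrophages, had ratios of 0.51, 0.58 and 0.57 in the day 1 pools and 1.93, 1.46 and 1.94 in the day 3 pools (change 1.22 ± 0.25 (SE), adjusted p = 0.0143). C1qa, a chain of the complement protein C1q, went from 0.24, 0.61 and 0.59 to 1.30, 1.59 and 1.47 (change 0.97 ± 0.23 (SE), adjusted p = 0.0288). Without day 3 replicate 1 neither passed, with changes of 1.14 for Trem2 and 1.05 for C1qa (adjusted p = 0.0555 and 0.0565). Trem2 was also lost without day 1 replicate 3, and C1qa was lost in 5 of the 6 fits with a pool left out. Fcgr3, a receptor for antibodies, and Ms4a7 changed by 0.92 ± 0.24 (SE) and 0.76 ± 0.20 (SE) (adjusted p = 0.0436 and 0.0483), with the call of Fcgr3 lost in 5 and that of Ms4a7 in 6 of those fits. With a pool left out the list held 0 to 2 calls, and 0 without day 1 replicate 3. Marco, a scavenger receptor of alveolar macrophages, had a response of 1.43 on day 1 and 1.5 on day 3 (adjusted p of the change = 0.916). Fcna, ficolin A, which marks microbes for complement, had a response of 1.92, 2.89 and 1.79 on day 1 and 3.58, 3.24 and 4.78 on day 3. Its change of 1.66 ± 0.42 (SE) (adjusted p = 0.0368) was lost in 4 of the 6 fits with a pool left out.

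Most neutrophil markers were above the left lung on both days. Of 8 tested, 7 had risen on day 1 and 7 on day 3, beside 5.96% and 6.76% of all transcripts. None passed the test of the change (limma, beside 2.8% of all transcripts). The median ratio was 1.33, 2.41 and 2.43 in the day 1 pools and 0.97, 1.20 and 1.51 in the day 3 pools. Csf3r, the receptor for G-CSF, went from 2.13 to 0.87 (change −1.26, adjusted p = 0.0624), with right lungs alone that differed by −0.72. S100a9, an alarmin of these cells, went from 2.36 to 1.48 (adjusted p = 0.19). No platelet gene passed the test of the change. All 8 tested had risen on day 3 and 2 on day 1, the median ratio was 0.18, 0.78 and 0.25 in the day 1 pools and 1.01, 1.24 and 1.80 in the day 3 pools, and Gp5, a platelet surface protein, changed by 1.0 (adjusted p = 0.0858).

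**Figure D5:**
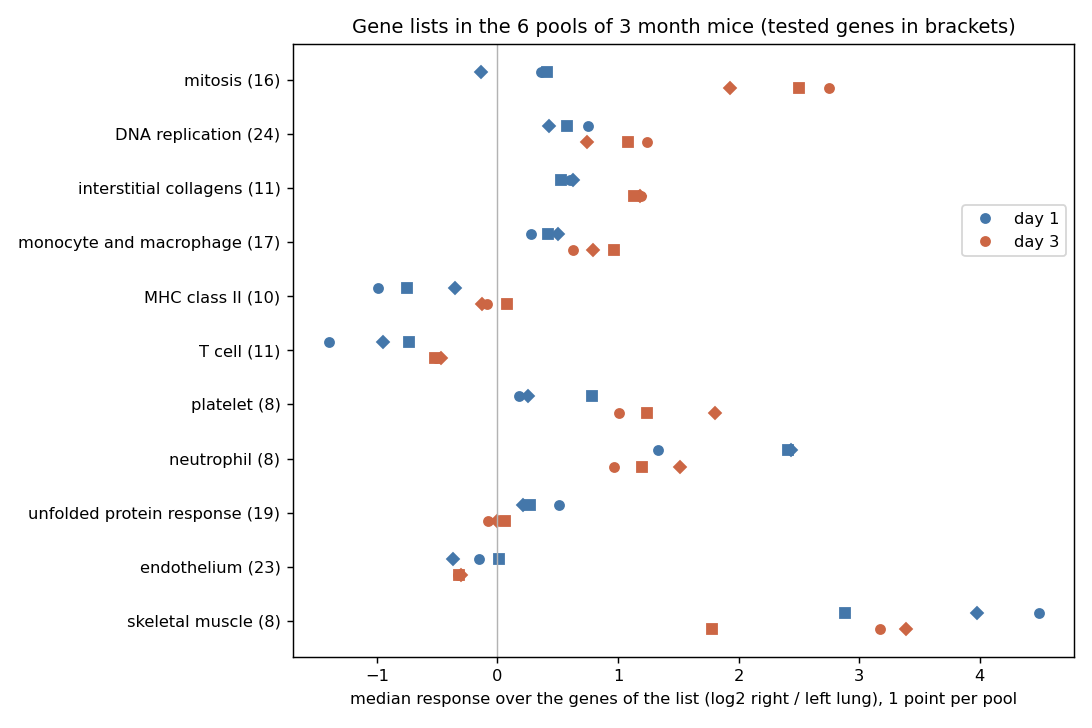
Median log2 ratio of right over left lung over the tested genes of 11 gene lists (x axis), 1 point for each pool, day 1 in blue and day 3 in orange, with circles, squares and diamonds for replicates 1, 2 and 3. The mitosis list moves from between −0.14 and 0.41 to between 1.93 and 2.75, while the skeletal muscle list lies between 1.78 and 4.49 on both days and its groups overlap.

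A few genes of vessels were among the responses that fell on day 3 or turned. Of 23 tested endothelial markers 2 were lower, beside 0.988% of all transcripts, and none higher. The median change was −0.16. Edn1, the vasoconstrictor endothelin 1, turned from 1.01, 0.49 and 0.75 on day 1 to −0.61, −1.16 and −0.01 on day 3 (change −1.34 ± 0.25 (SE), adjusted p = 0.0094). Every day 1 ratio was above 0 and every day 3 ratio below 0. The call of Edn1 was lost in the fit on the 6 pools alone and in that on the 9 pools of 3 month mice. Epas1, the hypoxia-inducible factor HIF-2α that is abundant in endothelium, turned as well, from 0.92, 0.32 and 1.40 to −1.73, −0.21 and −0.52 (change −1.70 ± 0.37 (SE), adjusted p = 0.0193). Its call was lost without day 1 replicate 1, day 1 replicate 3 or day 3 replicate 1, and the change was −1.25 without the last of these. For Pecam1, the endothelial adhesion molecule CD31, the brighter probe went from 0.34, −0.14 and 0.59 to −1.01, −0.46 and −0.68 (change −0.98 ± 0.22 (SE), adjusted p = 0.0204), but its other probe measured 0.03. The call of Pecam1 was lost without day 1 replicate 1, day 1 replicate 3 or day 3 replicate 1, and the change was −0.84 without the last of these (adjusted p = 0.0871). The other markers of the cell type, such as Cdh5, VE-cadherin, at −0.16 (adjusted p = 0.61) and Eng, endoglin, at −0.13 (adjusted p = 0.708), did not pass.

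Tenc1 and Efr3a fell below the left lung on day 3 in calls that rested on single pools. Tenc1, the focal adhesion protein tensin 2, had ratios of 0.15, 0.55 and 0.83 in the day 1 pools and −1.73, −0.50 and −0.32 in the day 3 pools (change −1.36 ± 0.33 (SE), adjusted p = 0.0316), and without day 3 replicate 1 the change was −0.92 and not called. Efr3a, which anchors a lipid kinase at the plasma membrane, turned from 0.83, 0.30 and 0.94 to −1.47, −0.11 and −0.36 (change −1.33 ± 0.30 (SE), adjusted p = 0.0237), and likewise was at −0.92 and not called without that pool. In both genes day 3 replicate 1 was the lowest, and the calls were also lost without day 1 replicate 2 or 3 for Tenc1 and without day 1 replicate 1 or 3 for Efr3a. Another probe of Tenc1 measured −0.15. Sult1a1, a sulfotransferase, changed by −1.09 ± 0.26 (SE) (adjusted p = 0.0266), with left lungs that differed by 0.56, and lost its call in 4 of the 6 fits with a pool left out. In the list of glucocorticoid response genes Sult1a1 and Lcn2 were lower among 15 tested, beside 0.988% of all transcripts.

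A few genes of other lists passed. Muc16, a mucin of the mesothelium, grew from 1.05, 1.05 and 0.45 on day 1 to 2.47, 2.21 and 2.20 on day 3 (change 1.44 ± 0.37 (SE), adjusted p = 0.039), and the call was lost whichever pool was left out. Lamb3, a laminin chain that pairs with Lama3 in epithelial basement membranes, started to rise on day 3 (change 0.68 ± 0.17 (SE), adjusted p = 0.0333). Emp2, a membrane protein of alveolar type I cells, was the only 1 of 13 tested markers of those cells to pass, with a change of 0.54 ± 0.12 (SE) (adjusted p = 0.0258), from −0.92 ± 0.07 (SD, n = 3) on day 1 to −0.38 ± 0.08 on day 3. Cytl1, a cytokine-like protein of cartilage, fell to −0.94 ± 0.20 on day 3 (change −0.95 ± 0.22 (SE), adjusted p = 0.0238). The calls of Lamb3, Emp2 and Cytl1 were each lost in 5 of the 6 fits with a pool left out. None of the 16 alveolar type II cell markers and none of the 10 club cell markers passed.

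Several genes that the study names did not change detectably between the days. Of 18 tested, Birc5, Mdk, Col3a1 and Eln were higher, beside 1.81% of all transcripts, and none was lower. Some of these genes were named by the study from these lungs and others from cultured fibroblasts, and for the former the count is no independent evidence. Tnc, the matrix protein tenascin C, had a response of 1.59 on day 1 and 2.35 on day 3 (change 0.76, adjusted p = 0.51). The right lungs alone differed by 0.11 for Tnc, so most of its change lay in the left lungs. Retnla, a secreted product of alternatively activated macrophages and lung epithelium, had a response of 2.14 and then 2.99 (adjusted p = 0.316). The response of Lox, which crosslinks collagen, was 0.96 and then 0.48 (adjusted p = 0.494). For Fn1, fibronectin, it was 0.88 and then 0.99 (adjusted p = 0.891). Acta2, smooth muscle actin, stood at 0.60 and 0.23 (adjusted p = 0.293). Of 48 gene lists with a tested member, 30 had no gene called, 4 had more than 2, and the mitosis list alone had more than 4.

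The change was set beside the same comparison in 9 month mice, with 3 pools a day on the same chips. In those mice 381 transcripts were higher on day 3 (2.41%) and 238 lower (1.51%). Of the 442 transcripts of 3 month mice, 159 were called in the same direction at 9 months and 412 had the same sign. The share with the same sign among all transcripts was not counted. Both ages of a day and side shared a chip, so a chip effect common to both ages cannot be told apart from a shared change. The difference of the change between the ages did not pass for any transcript (limma, smallest adjusted p = 0.0864). At an unadjusted p under 0.05 in that test there were 1420 of 15795, a share above 0.05. The mitosis list had 16 of 16 higher at 9 months and a median change of 2.74, beside 1.98 at 3 months. Of the replication genes 18 of 24 were higher at 9 months, with a median of 1.08 beside 0.37. The change of Cdh16 was 1.65 ± 0.19 (SE) at 3 months and 0.14 at 9 months (adjusted p of the difference = 0.0864), and that of Lcn2 was −1.37 and −0.02 (adjusted p of the difference = 0.266). No difference between the ages was thus shown for any single gene.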

How the data were processed

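Right and left lungs of 3 and 9 month mice were hybridised to Illumina MouseWG-6 v2 arrays. The authors deposited probe intensity values, not yet normalized, with a detection p-value for each probe and array. They also deposited log2 values after their own background adjustment and quantile normalization, used here as an alternative. Tables of the authors' fold changes were not used. Intensities were corrected with normexp from the detection p-values (offset 16), quantile normalized and log2 transformed in limma 3.58.1 (R 4.3.3). The 15795 transcripts detected on each of the 36 arrays (detection p under 0.05) were kept. The study likewise kept only probes detected on all arrays, but it named no detection threshold and reported a larger set.

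The right minus left log2 ratio of each pool was fitted with limma over all 18 pools in 6 groups of age and day, which share 1 estimate of the spread. The pairing of right and left lung comes from the methods, in which both are of the same mice, and their deviations from the group means correlated at −0.28 to 0.07. P-values were adjusted by the Benjamini-Hochberg method over all transcripts. Calls required an adjusted p under 0.05 and at least 1.5-fold in the response on day 1 or day 3. P-values measure the spread between pools of 2 mice. The fit was tested on simulated data.

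Genes were named by rule: the 15 with the largest change in each direction, the 5 largest of each class, the up to 4 members of a described list with the smallest p, and the genes the study names. Clone names were skipped for the first 2 parts, as were genes whose left lungs differed by over 0.5 times the change. The brightest probe stood for a gene. Further list members were named for their role after their values had been seen. The members and lists were chosen with earlier results of these data known. Alternatives were other background, scaling, filter and fold settings, other sets of pools, the methods' t-test, other baselines and pairings, array weights, and each pool left out in turn.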

Additional observations from a re-analysis of the deposited data

How the results depend on the processing

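The counts of transcripts with a changed response and of those called on 1 day only were recomputed under all alternatives and with each of the 6 pools left out. The counts between right and between left lungs were recomputed under the background, scaling and detection settings and with pools left out, and the age difference under all but the smaller sets of pools and the t-test. No named gene with a called change turned to the other sign. Of the values for single genes, 4558 kept their side of the threshold, 353 were no longer past it and 110 were newly past it. For genes that were not called the sign was not compared. It could differ, as for Adipoq, whose change ran from −0.76 to 0.32 with a pool left out. With a pool left out, and so fewer samples, 112 to 242 transcripts had a higher response on day 3, 54 to 132 a lower one, 94 to 210 were called on day 3 only and 50 to 168 on day 1 only. Between the right lungs 241 to 600 then differed, between the left lungs 0 to 9, and none differed between the ages. On the 6 pools of the comparison alone the 4 counts were 89, 22, 67 and 22, and on the 9 pools of 3 month mice 83 were lower and 99 called on day 1 only. The methods' t-test gave 0 for all 4 after Benjamini-Hochberg adjustment, and 534, 330, 394 and 380 unadjusted at 0.05. The difference between left lungs came to 37 with scaling to the 75th percentile, 18 with the authors' log2 values, 25 at a detection p under 0.01, and 0 with detection on at least 3 arrays or no filter. Right lungs differed for 327 transcripts with the authors' values. The change differed between the ages for 9 transcripts against the mean of the 9 left lungs, 6 with no pairing of right and left (no replicate block) and 2 with array weights. The causes of these moves were not tested.

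With the replicate number as a block the counts were 238 higher, 116 lower, 164 on day 3 only and 147 on day 1 only. For the 164 and 147 the p-value of each day referred to the level of replicate 1, while the fold was the group mean. They are therefore not the same kind of count as in the main fit. The numbers did not pair the day 1 and day 3 pools, which hold different mice, and the deviations of same-numbered pools correlated at 0.11, −0.26 and 0.30 across transcripts. The number of pools, 3 a day, limits the precision of each value.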
